A study of Mus musculus with 21 samples.

Results

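The solute carriers are a superfamily of membrane proteins that move amino acids, sugars, nucleosides, metals, phosphate and other small molecules across the plasma membrane and the membranes of organelles. In thymocytes they supply the nutrients for growth and division, and several of them carry substrates that the cell cannot make in sufficient amount, among them cystine for glutathione synthesis and zinc for enzymes and transcription factors. HDAC7 is a class IIa histone deacetylase that is abundant in double-positive thymocytes, the cells on which positive and negative selection act; it represses target genes through MEF2 factors and leaves the nucleus after receptor signalling. Every gene whose symbol begins with Slc and a digit in any of the authors' 4 deposited tables of changed genes was taken, which gave 37 genes among 2132 named rows and 28944 rows kept. Of the 37, 28 were listed in 1 table, 8 in 2 tables and Slc6a19 in 3 tables.

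The 21 arrays, of the Affymetrix Mouse Gene 1.0 ST type, each measured RNA of double-positive (CD4 and CD8) thymocytes, sorted from C57 Bl/6 mice aged 3 to 6 weeks. There were 5 groups of 3 arrays, from HDAC7 knockout mice, HDAC7-VP16 transgenic mice (HDAC7 joined to the VP16 activation domain), OT-2 TCR transgenic mice, OT-2 mice harvested 3 hours after agonist peptide i.p., and OT-2 mice that carried HDAC7 deltaP and were given the same peptide, and 6 arrays came from untreated wild-type mice. The labels call deltaP an HDAC7 mutant transgene, while the genotype field of those arrays lists the OT-2 receptor alone; the sources used here give neither the promoters of the transgenes nor the deleted part of Hdac7. The knockout was set against wild-type arrays 1 to 3, VP16 against wild-type arrays 4 to 6, OT-2 against all 6, peptide-injected OT-2 against OT-2 and against wild-type arrays 1 to 3, and deltaP against peptide-injected OT-2.

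All values below are log2 RMA signals, and a change is the difference of group means ± the standard error of the limma fit, called at a Benjamini-Hochberg adjusted p under 0.05 over 28923 rows. With 3 arrays in most groups, the number of arrays limits the precision. Over all rows, r between replicate arrays lay from 0.969 to 0.997, the wild-type arrays of both sets included. The deposited columns form 4 blocks that differ in decimals and spread: knockout, peptide-injected OT-2 and wild-type 1 to 3 share one, VP16 and wild-type 4 to 6 another, and OT-2 and deltaP have one each. In the comparisons of OT-2 with wild type, of peptide-injected OT-2 with OT-2 and of deltaP with peptide-injected OT-2, block and group therefore cannot be told apart. Hdac7 itself had 10.98, 10.94 and 10.97 on the arrays labelled knockout, against 11.42, 11.01 and 11.48 on wild-type arrays 1 to 3, a change of -0.34 ± 0.14 that did not pass (adjusted p = 0.664, limma). Its probe set averages probes along the transcript, so without the position of the deletion it does not check the label. In VP16 thymocytes Hdac7 rose by 0.44 ± 0.07 (adjusted p = 0.0351, limma), and with deltaP its change was -0.16 ± 0.17 (adjusted p = 0.517, limma).

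By substrate, 9 of the 37 genes carry amino acids, 6 carry nucleosides, nucleobases or nucleotide sugars, and 6 carry metals. Sugars, sugar phosphates and polyols are carried by 4, and carboxylates, fatty acids or acetyl-CoA by another 4. The mitochondrial carriers number 3, the carriers of choline, urea and organic cations 3, and the carriers of phosphate and inorganic ions 2. Over the 6 comparisons, 28 of the 37 genes passed the test at least once, and Slc1a4, Slc1a5, Slc38a1, Slc43a2, Slc40a1, Slc29a1, Slc20a1, Slc37a1 and Slc45a3 never did. Of all rows, from 0.809% (knockout) to 19.5% (peptide against OT-2) were called per comparison. The share of all rows called at least once was not counted. Slc16a10 passed in 4 comparisons, and Slc6a19 and Slc44a1 in 3 each. Because the members were taken from the authors' lists for the knockout, VP16, OT-2 and peptide comparisons, their counts in those comparisons, and in the difference between the VP16 and the knockout effect, describe the members and nothing is read from their excess over the background; the deltaP comparison and that of peptide-injected OT-2 with wild type are in none of the lists, but both use arrays that the lists used.

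**Figure D1:**
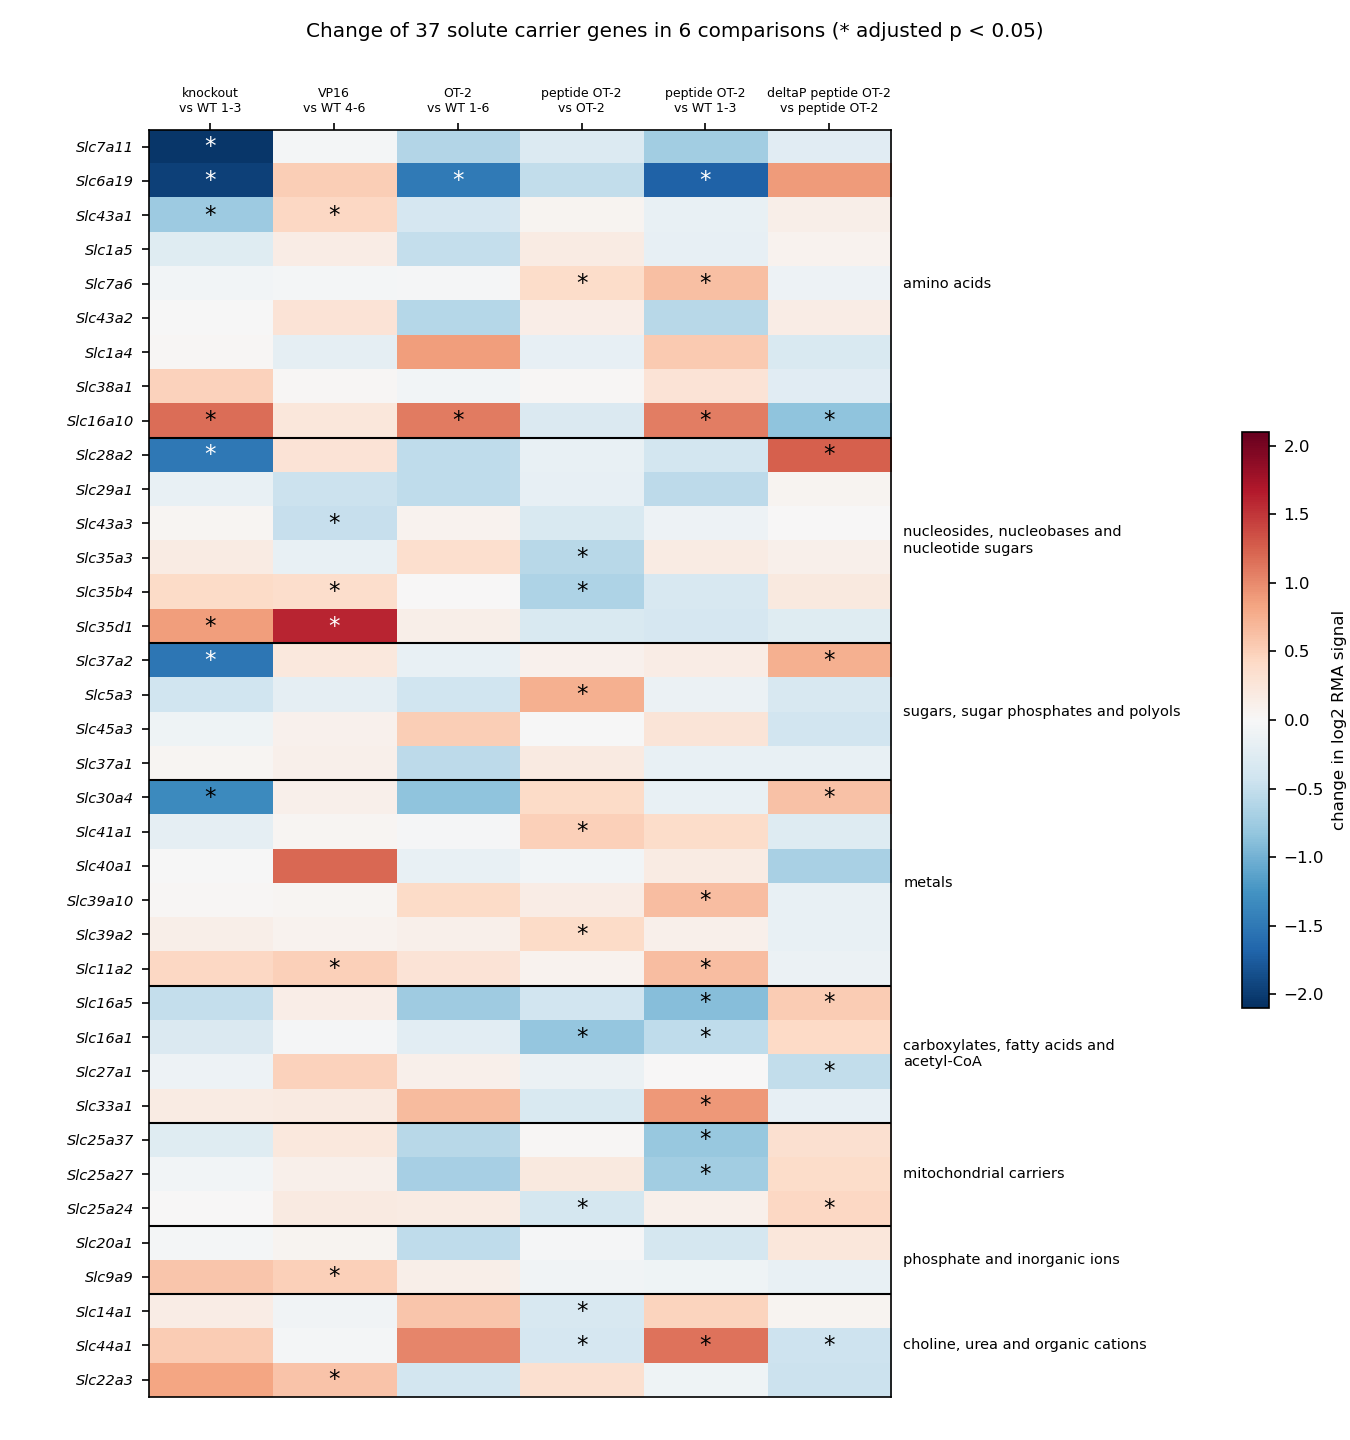
Heat map of the change in log2 RMA signal of the 37 solute carrier genes (rows, grouped by substrate) in 6 comparisons (columns), red for higher and blue for lower in the group named first; stars mark an adjusted p under 0.05. The darkest cells are Slc7a11 (-2.04) and Slc6a19 (-1.96) in the knockout, Slc6a19 in peptide-injected OT-2 against wild type (-1.70) and Slc35d1 in VP16 (1.60), and Slc28a2, Slc37a2 and Slc30a4 are blue with a star in the knockout column and red with a star in the deltaP column.

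On the HDAC7 knockout arrays, 6 solute carriers fell and 2 rose, where 0.809% of all rows were called. The falls were of Slc7a11, the cystine and glutamate exchanger (-2.04), of Slc6a19, a sodium-coupled neutral amino acid transporter best known from gut and kidney (-1.96), and of Slc37a2, a sugar phosphate exchanger of the endoplasmic reticulum (-1.52). Slc28a2, a sodium-coupled purine nucleoside importer (-1.50), Slc30a4, which loads zinc from the cytosol into vesicles (-1.34), and Slc43a1, a facilitative carrier of branched-chain amino acids (-0.76), fell as well. The rises were of Slc16a10, which carries aromatic amino acids, by 1.18 and of Slc35d1, which brings nucleotide sugars into the endoplasmic reticulum, by 0.87. All 8 are in the authors' knockout list, and none of the 8 had overlapping values between knockout and wild-type arrays. The share of all rows without overlap was not counted, so a lack of overlap, here and below, is only a description. The median change of the 37 genes was -0.01, beside -0.02 over all rows.

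Slc7a11 had 7.79, 7.49 and 8.63 on the knockout arrays, against 9.96, 9.69 and 10.37 on wild-type arrays 1 to 3. The change was -2.04 ± 0.29 (adjusted p = 0.0178, limma), and knockout array 3 lay closest to wild type. Without knockout array 3 the adjusted p was 0.0102, and without any other of the 6 arrays the call was lost in the fit without pairs (adjusted p from 0.0565 to 0.0970, changes from -2.20 to -1.80). With the replicate numbers as a block and all 6 arrays the change was -2.04 ± 0.13 (adjusted p = 0.00116, limma). Outside these groups Slc7a11 ran from 8.78 to 10.55. It had 10.15, 10.46 and 10.23 in VP16, against 10.55, 10.14 and 10.26 on wild-type arrays 4 to 6. It had 9.29, 8.89 and 8.92 with deltaP, against 9.37, 9.67 and 8.78 in peptide-injected OT-2, and 9.53, 9.46 and 9.68 in OT-2. Neither VP16 (change -0.04 ± 0.12) nor deltaP (-0.24 ± 0.21) passed for this gene.

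Slc7a11 is a classical target of the amino acid response, in which ATF4 with a C/EBP partner binds a composite element, and its promoter is printed because the letters of that element stand in it. The letters TGATGNAA, searched on both strands over 250 bases before to 50 bases after each RefSeq start, matched at 2 places in it, on opposite strands and without overlap. Of 32544 distinct mouse promoters of the same length 3.91% hold a match, and of the 8 carriers called in the knockout, all of which have a promoter in the table, 1 does. Other patterns were searched in the same way. The AP-1 site TGANTCA lies in 7.79% of all promoters and in 1 of the 8, that of Slc37a2, which is printed below the other. The MEF2 site CTANNNNTAG lies in 3.70% of all promoters and in 0 of the 8 windows. A match is a description of the letters and not a site. Capitals mark the matches, and the sequences are from RefSeq (GRCm38.p6), minus strand, chr3:50443564-50443863 for Slc7a11 and chr9:37255689-37255988 for Slc37a2.
Slc7a11: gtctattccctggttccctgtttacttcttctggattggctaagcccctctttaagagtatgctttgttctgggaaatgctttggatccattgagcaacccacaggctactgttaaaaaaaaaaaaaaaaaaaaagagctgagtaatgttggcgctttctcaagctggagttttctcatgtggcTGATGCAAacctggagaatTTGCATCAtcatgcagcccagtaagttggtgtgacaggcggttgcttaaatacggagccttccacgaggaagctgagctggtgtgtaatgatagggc
Slc37a2: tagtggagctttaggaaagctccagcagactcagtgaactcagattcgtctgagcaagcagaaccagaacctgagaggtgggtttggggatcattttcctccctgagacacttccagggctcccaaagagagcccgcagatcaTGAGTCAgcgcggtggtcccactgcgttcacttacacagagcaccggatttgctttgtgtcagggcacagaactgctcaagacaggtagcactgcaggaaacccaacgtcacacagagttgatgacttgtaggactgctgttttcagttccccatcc

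No other named gene of the amino acid response was called in the knockout. Of a list of 21 ATF4 targets and related genes 9 were named here, and 0 of the 9 passed in the knockout (limma, 1 with an unadjusted p under 0.05, Aldh18a1). Aldh18a1, an enzyme of proline synthesis, had a change of 0.41 ± 0.10 (adjusted p = 0.2), Phgdh, of serine synthesis, one of -0.19 ± 0.12 (0.887) and Ddit3, the stress factor CHOP, one of -0.14 ± 0.11 (0.928). Of the list of 13 glutathione and NRF2 target genes G6pdx alone was named, and it changed by -0.09 ± 0.13 (adjusted p = 0.983, limma).

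Slc6a19 had 6.41, 6.55 and 6.90 in the knockout, against 8.36, 8.38 and 9.00 on wild-type arrays 1 to 3. The change was -1.96 ± 0.20 (adjusted p = 0.00408, limma), with every knockout array below every wild-type array. It had 9.39, 9.90 and 9.81 in VP16, against 9.13, 9.20 and 9.22 on wild-type arrays 4 to 6, and this change of 0.52 ± 0.13 did not pass (adjusted p = 0.0759, limma). In OT-2 it had 7.31, 7.11 and 7.77, all below the 6 wild-type arrays, and the change of -1.48 ± 0.24 passed (adjusted p = 0.0150, limma). That call was lost without OT-2 array 1 or without OT-2 array 2, where the adjusted p was 0.108 and 0.120. Slc6a19 had 6.98, 8.14 and 8.24 with deltaP, against 7.26, 6.27 and 7.12 in peptide-injected OT-2, and the groups overlapped. Slc6a19 was thus lower than wild type both in the knockout and in OT-2, 2 comparisons that share wild-type arrays 1 to 3.

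Slc37a2 had 7.58, 7.63 and 7.87 in the knockout, against 9.34, 9.00 and 9.30 on wild-type arrays 1 to 3. The change was -1.52 ± 0.13 (adjusted p = 0.00226, limma), which is a signal of 0.349 times that of wild type. It had 9.79, 10.00 and 9.92 in VP16, against 9.62, 9.71 and 9.72 on wild-type arrays 4 to 6, a change of 0.22 ± 0.08 that did not pass. With deltaP it had 10.04, 10.26 and 10.03, against 9.54, 9.23 and 9.35 in peptide-injected OT-2, and 9.23, 9.13 and 9.48 in OT-2. The deltaP arrays were all above the peptide arrays, and the rise of 0.74 ± 0.11 passed (adjusted p = 0.00996, limma). Slc37a1, the related sugar phosphate exchanger, changed by 0.04 ± 0.12 in the knockout and by -0.16 ± 0.14 with deltaP and did not pass in any comparison.

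Slc28a2 had 7.21, 7.22 and 7.56 in the knockout, against 8.40, 8.95 and 9.15 on wild-type arrays 1 to 3. The change was -1.50 ± 0.20 (adjusted p = 0.0128, limma), and the call was lost without knockout array 1 (0.0679), knockout array 2 (0.0714) or wild-type array 2 (0.0763) in the fit without pairs. With the replicate numbers as a block the standard error was 0.13 (adjusted p = 0.00383, limma). It had 9.49, 9.86 and 9.77 in VP16, against 9.38, 9.43 and 9.47 on wild-type arrays 4 to 6, with no overlap but a change of 0.28 ± 0.10 that did not pass. The deltaP arrays had 9.61, 10.03 and 9.44, against 8.65, 8.37 and 8.30 in peptide-injected OT-2, and 8.45, 8.31 and 9.03 in OT-2. This rise of 1.26 ± 0.16 (adjusted p = 0.00702, limma) was the largest among the 37 genes with deltaP.

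Slc30a4 had 7.18, 7.35 and 7.36 in the knockout, against 8.59, 8.56 and 8.74 on wild-type arrays 1 to 3. The change was -1.34 ± 0.11 (adjusted p = 0.00154, limma), the smallest adjusted p of the 37 genes in the knockout. It had 9.27, 9.34 and 9.33 in VP16, against 9.17, 9.16 and 9.29 on wild-type arrays 4 to 6, and these overlapped. With deltaP it had 9.04, 9.06 and 9.20, against 8.42, 8.65 and 8.37 in peptide-injected OT-2, and 7.91, 7.91 and 8.41 in OT-2. The rise with deltaP was 0.62 ± 0.10 (adjusted p = 0.0118, limma), and again no deltaP array overlapped a peptide array.

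Slc43a1 had 8.96, 8.98 and 8.87 in the knockout, against 9.83, 9.46 and 9.80 on wild-type arrays 1 to 3, and fell by 0.76 ± 0.13 (adjusted p = 0.0354, limma). It had 10.34, 10.56 and 10.39 in VP16, against 10.03, 9.96 and 9.97 on wild-type arrays 4 to 6, and rose by 0.44 ± 0.08 (adjusted p = 0.0421, limma). Slc43a1 was the one member of the 37 called in both of these comparisons with opposite signs. Both calls were weak in the fits without pairs: the knockout call held only without wild-type array 2 among the 6 arrays (adjusted p = 0.0288, against 0.127 to 0.162 without any of the others), and the VP16 call only without VP16 array 1 (0.0355, against 0.0823 to 0.162). The knockout change with the replicate numbers as a block and all 6 arrays was -0.76 ± 0.12 (adjusted p = 0.0429, limma). Slc43a1 had 9.73, 9.53 and 9.72 with deltaP, against 9.40, 9.70 and 9.51 in peptide-injected OT-2, and 9.62, 9.56 and 9.31 in OT-2, and these groups overlapped.

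Slc16a10 had 7.83, 8.48 and 8.22 in the knockout, against 7.20, 7.02 and 6.76 on wild-type arrays 1 to 3. It rose by 1.18 ± 0.18 (adjusted p = 0.0266, limma), a call that, in the fit without pairs, held without knockout array 1 (0.0247) and was lost without any other of the 6 arrays (0.0695 to 0.131) and with all 6 wild-type arrays as the control (0.118). Slc16a10 changed by 1.18 ± 0.18 with the replicate numbers as a block and all 6 arrays (adjusted p = 0.0306, limma). It had 7.84, 7.83 and 7.79 in VP16, against 7.46, 7.63 and 7.65 on wild-type arrays 4 to 6, a change of 0.24 ± 0.07 that did not pass. It was high in the receptor transgenic groups as well: OT-2 had 8.49, 8.49 and 8.16, all above the 6 wild-type arrays, a rise of 1.09 ± 0.20 (adjusted p = 0.0258, limma). That call was lost without any one of the OT-2 arrays, with an adjusted p of at least 0.0630. With deltaP it had 7.51, 7.04 and 7.12, against 8.08, 7.95 and 8.20 in peptide-injected OT-2, a fall of 0.85 ± 0.14 (adjusted p = 0.0110, limma).

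Slc35d1 had 9.91, 9.62 and 9.80 in the knockout, against 8.94, 8.77 and 9.00 on wild-type arrays 1 to 3, and rose by 0.87 ± 0.12 (adjusted p = 0.0151, limma). It had 9.98, 10.38 and 10.28 in VP16, against 8.75, 8.59 and 8.49 on wild-type arrays 4 to 6. This rise of 1.60 ± 0.12 (adjusted p = 0.00151, limma) was the largest called change of the 37 genes in VP16. The knockout and VP16 comparisons share no arrays, and Slc35d1 was the one member that passed as higher in both; the difference between the effects, 0.73 ± 0.17, did not pass (adjusted p = 0.0722, limma). The VP16 call held without each of the 6 arrays, while the knockout call, in the fit without pairs, held only without knockout array 2 (0.0361, against 0.0527 to 0.0869 without the others). The knockout change with the replicate numbers as a block and all 6 arrays was 0.87 ± 0.10 (adjusted p = 0.0121, limma). Slc35d1 had 7.92, 8.63 and 8.35 with deltaP, against 8.53, 8.34 and 8.80 in peptide-injected OT-2, and 8.86, 8.88 and 8.90 in OT-2, with no call.

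**Figure D2:**
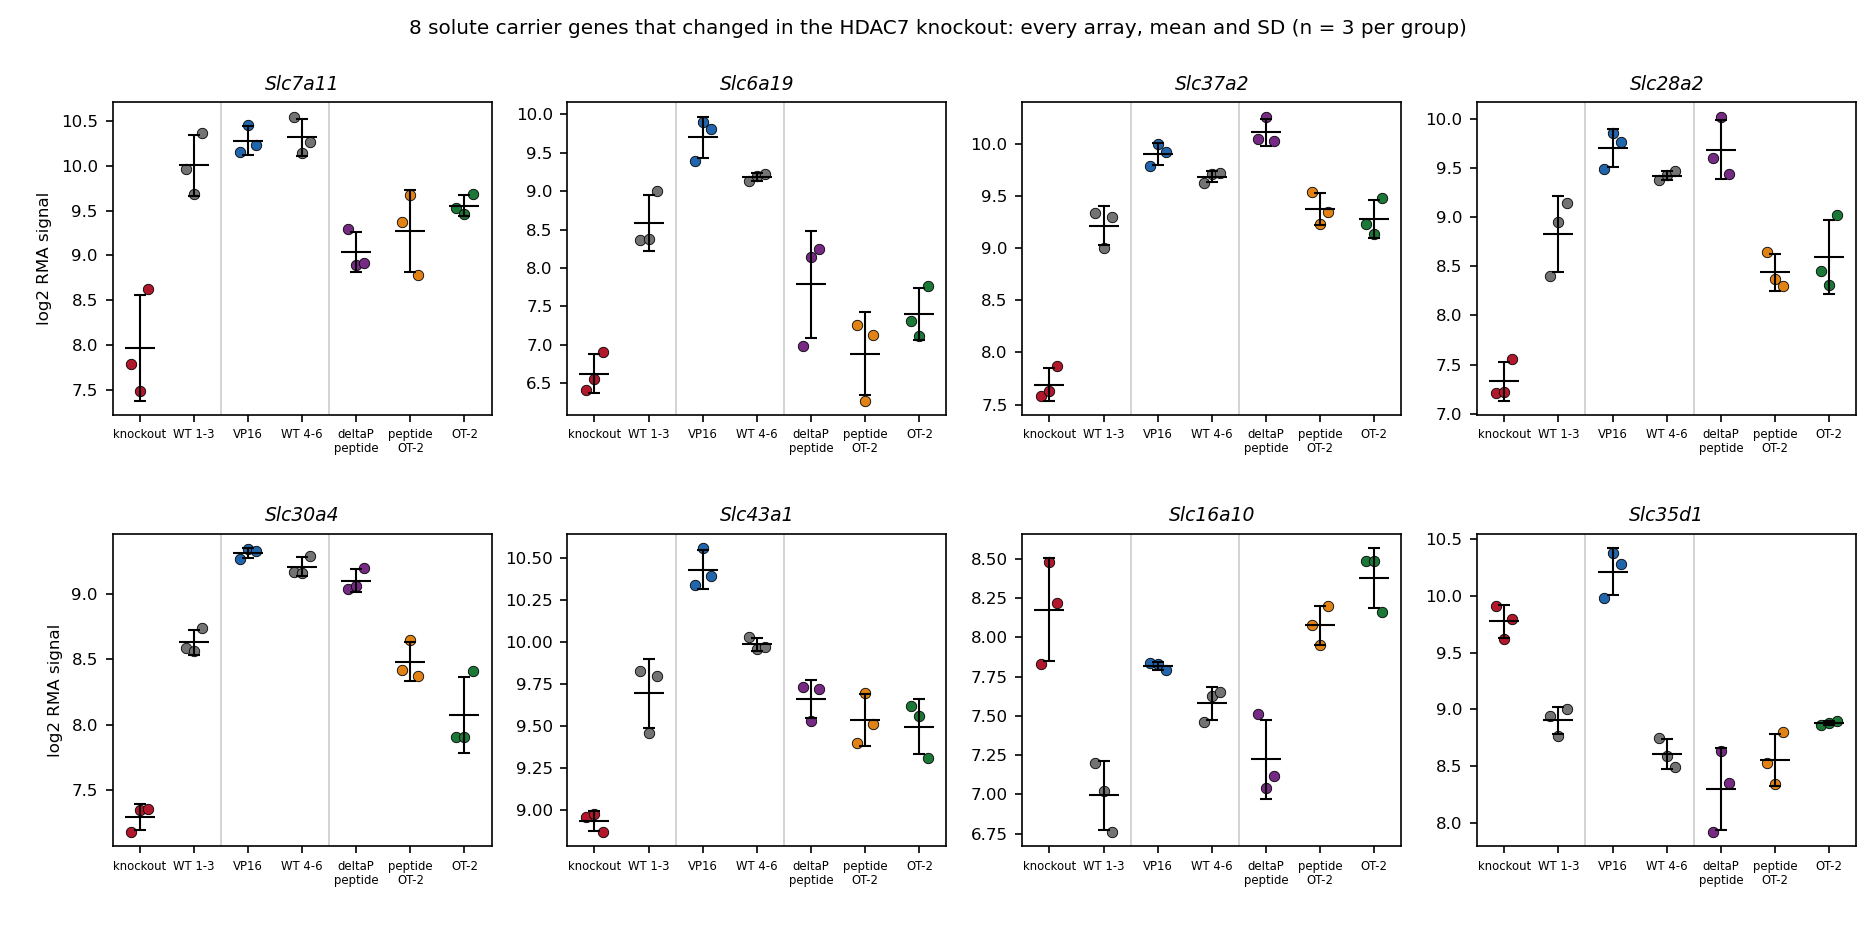
Log2 RMA signal of the 8 solute carrier genes called in the knockout on every array (points), with the mean and SD of each group of 3 arrays, for knockout and wild-type 1-3, VP16 and wild-type 4-6, and deltaP with peptide, peptide OT-2 and OT-2; each axis has its own range. In Slc28a2, Slc37a2 and Slc30a4 the knockout arrays lie lowest of all 21 and the deltaP arrays lie above the peptide OT-2 arrays.

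Counting every member, 16 of the 37 had an unadjusted p under 0.05 in the knockout and 8 passed the adjusted test. Among carriers of amino acids 3 of 9 fell and 1 rose; Slc38a1, a glutamine transporter, was not called at 0.49 ± 0.10 (adjusted p = 0.0788, limma). Among carriers of nucleosides and nucleotide sugars 1 of 6 fell and 1 rose. The equilibrative nucleoside transporter Slc29a1 and the purine nucleobase transporter Slc43a3 did not pass, at -0.15 ± 0.15 and 0.04 ± 0.19. In the metal class Slc30a4 was the one of 6 that passed. The iron importer Slc11a2, the zinc importers Slc39a10 and Slc39a2, the iron exporter Slc40a1 and the magnesium transporter Slc41a1 had changes from -0.19 to 0.43. No carrier passed among the 4 for carboxylates, fatty acids and acetyl-CoA, the 3 mitochondrial carriers, the 2 for phosphate and ions or the 3 for choline, urea and organic cations (0 of 12 with limma, 4 with an unadjusted p under 0.05). The organic cation transporter Slc22a3 had the largest change of these, 0.83 ± 0.23 (adjusted p = 0.277, limma).

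The count of 8 in the knockout was the same with the replicate numbers as a block. In fits without pairs it became 4 or 5 without each one of the 6 arrays. The rows called over all were then 107 to 155, against 234 with all arrays. Slc6a19, Slc37a2 and Slc30a4 kept their calls in all 13 alternative fits. Of the marker genes given here Ptcra and Itgam passed in the knockout. The 5 named of 9 double-positive markers (Cd4, Cd8b1, Rag1, Rag2, Ptcra) had a mean level of 10.04 to 10.19 on knockout arrays, against 10.59 to 10.79 on wild-type arrays 1 to 3. Ptcra, the pre-receptor alpha chain, fell by 1.11 ± 0.12 (adjusted p = 0.00554, limma). Cd4 (-0.59 ± 0.12), Rag2 (-0.61 ± 0.18), Rag1 (-0.50 ± 0.11) and Cd8b1 (-0.06 ± 0.10) did not pass. Itgam, the one named of 8 myeloid markers, had 7.59 to 7.65, against 6.60 to 6.81, and rose by 0.89 ± 0.10 (adjusted p = 0.00767, limma). Cd79b, the one named of 5 B cell markers, had 7.34 to 7.96, against 8.24 to 8.42, and did not pass (adjusted p = 0.28, limma). The 3 named of 5 double-negative markers had 6.25 to 6.58, against 6.35 to 6.91, and none of them passed. None of the 8 erythroid or 5 epithelial markers was named. The part of these marker differences in the carrier changes was not tested, and in bulk samples fewer cells of a type and less RNA per cell cannot be told apart.

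In VP16 thymocytes 6 solute carriers rose and 1 fell, where 1.43% of all rows were called. Beside Slc35d1 and Slc43a1, the rises were of Slc22a3 by 0.60 ± 0.07, of Slc11a2 by 0.50 ± 0.07, of the endosomal sodium and proton exchanger Slc9a9 by 0.50 ± 0.07 and of Slc35b4, which brings nucleotide sugars into the Golgi, by 0.37 ± 0.06. Slc43a3 fell by 0.49 ± 0.09. Their adjusted p-values were 0.0168, 0.0194, 0.0287, 0.0405 and 0.0441 in that order (limma), and no VP16 array overlapped a wild-type array 4 to 6 in any of them. These 4 risers, Slc22a3, Slc11a2, Slc9a9 and Slc35b4, lay higher in the knockout as well, by 0.83 ± 0.23, 0.43 ± 0.14, 0.59 ± 0.13 and 0.41 ± 0.14, without overlap with wild type and without passing (adjusted p = 0.277, 0.462, 0.137 and 0.5, limma). Slc40a1, ferroportin, had the second largest change in size, 1.21 ± 0.32, and did not pass (adjusted p = 0.0938, limma); its VP16 arrays had a mean of 7.50 ± 0.52 and its wild-type arrays 4 to 6 one of 6.29 ± 0.58 (SD, n = 3 each). The median change of the 37 genes was 0.11, beside 0.02 over all rows.

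The VP16 count rests on few arrays, and the rows called over all moved with it. The member count was 7 with all arrays and 9 without VP16 array 1. It was 3 without VP16 array 2 and 1 without VP16 array 3 or without any one of wild-type arrays 4, 5 and 6. Slc35d1 kept its call in each of these fits. Over all rows 413 were called with all arrays, 791 without VP16 array 1 and 163 without VP16 array 2. The fits without VP16 array 3 or a wild-type array had 35 to 79. With all 6 wild-type arrays as the control 1 member and 34 rows were called. Slc43a1 and Slc43a3 are neighbours on chromosome 2 with 1 protein-coding gene, Rtn4rl2, between them in RefSeq GRCm38.p6, and in VP16 they changed in opposite directions. Markers moved in VP16 too: of the 3 named double-negative markers Il2ra, which encodes CD25, rose by 1.18 ± 0.21 (adjusted p = 0.0444, limma) and Dtx1, a Notch target, by 0.69 ± 0.13 (0.0481). The other, Cd44, went the opposite way, by -0.50 ± 0.10, without passing (adjusted p = 0.0556, limma). The mean level of the 3 was 7.47 to 7.86 in VP16, against 6.99 to 7.48 on wild-type arrays 4 to 6. Of the 5 double-positive markers 0 passed in VP16 (limma, 1 with an unadjusted p under 0.05), with means of 11.07 to 11.13 in VP16, against 11.08 to 11.18. Itgam had 6.89 to 7.24, against 6.40 to 6.66, and Cd79b 9.37 to 9.54, against 9.03 to 9.35, and neither passed. Their part in the carrier changes was not tested.

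The VP16 effect differed from the knockout effect in 6 of the 37 genes, where 0.802% of all rows were called, and it was the higher of both in all 6. With the replicate block in the knockout pairs 9 passed, 8 higher and 1 lower. The members were chosen in part by the authors' knockout and VP16 lists, so this count is a description. The differences were 2.48 ± 0.26 for Slc6a19, 2.00 ± 0.35 for Slc7a11, 1.78 ± 0.24 for Slc28a2, 1.74 ± 0.16 for Slc37a2, 1.44 ± 0.12 for Slc30a4 and 1.21 ± 0.15 for Slc43a1. These are the 6 carriers that fell in the knockout. Their changes in VP16 were smaller in size than in the knockout, from -0.04 for Slc7a11 to 0.52 for Slc6a19, and Slc43a1 alone passed there. Slc7a11 lost this call without VP16 array 2 or 3 or wild-type array 3, 5 or 6 (adjusted p from 0.0538 to 0.0757, limma), and the other 5 kept it in every fit that left out an array. Slc16a10, which rose in the knockout, had a difference of -0.94 ± 0.21 that did not pass (adjusted p = 0.0636, limma).

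With deltaP in peptide-injected OT-2 thymocytes, 5 solute carriers rose and 3 fell, and 15.0% of all rows were called. The share of members called, 21.6%, is close to that background. The rises were of Slc28a2, Slc37a2 and Slc30a4, of the monocarboxylate transporter Slc16a5 by 0.54 ± 0.14 (adjusted p = 0.0337, limma) and of the mitochondrial nucleotide and phosphate carrier Slc25a24 by 0.43 ± 0.09 (adjusted p = 0.0213, limma). The falls were of Slc16a10, of the fatty acid transporter Slc27a1 by 0.52 ± 0.11 (adjusted p = 0.0203, limma) and of the choline transporter Slc44a1 by 0.44 ± 0.11 (adjusted p = 0.0332, limma). The groups did not overlap in any of the 8. The median change was -0.11 over the 37 genes and -0.10 over all rows, of which 613 were called higher and 3736 lower. Centring each array on its median turned the median of all rows to 0.09 and the split to 3636 higher and 1016 lower, and 10 members were then called higher and 1 lower.

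Of the 8 carriers called in the knockout 4 were called with deltaP, and all 4 had the opposite sign. Slc28a2, Slc37a2 and Slc30a4 fell in the knockout and rose with deltaP, and Slc16a10 rose in the knockout and fell with deltaP. The knockout and deltaP comparisons share no arrays, and these 4 deltaP calls held in all 12 alternative fits, under both scalings and without each array. The same opposition was seen over all rows: of 234 rows called in the knockout 113 (48.3%) were called the opposite way with deltaP and 3 the same way. Among rows lower in the knockout, 42 of 106 were higher with deltaP, and among rows higher in the knockout, 71 of 128 were lower with deltaP. Of all 28923 rows 613 were called higher with deltaP and 3736 lower. The share of carriers, 4 of 8, is thus like that of all rows called in the knockout. These row counts are on the deposited scale and were not repeated under the other scalings. With those, the rows called with deltaP were 4652 (centred) and 846 (quantile). Block and deltaP cannot be told apart here. Slc6a19 also lay higher with deltaP, by 0.90 ± 0.36, without passing (adjusted p = 0.117, limma), and Slc7a11, with the largest fall in the knockout, did not lie higher. The other 4 deltaP calls were each lost without at least 2 of the 6 arrays. Without deltaP array 2 or deltaP array 3 the count was 4, and without peptide array 2 it was 5. Over all rows 1228, 1091 and 2363 were called in these fits, against 4349 with all arrays.

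**Figure D3:**
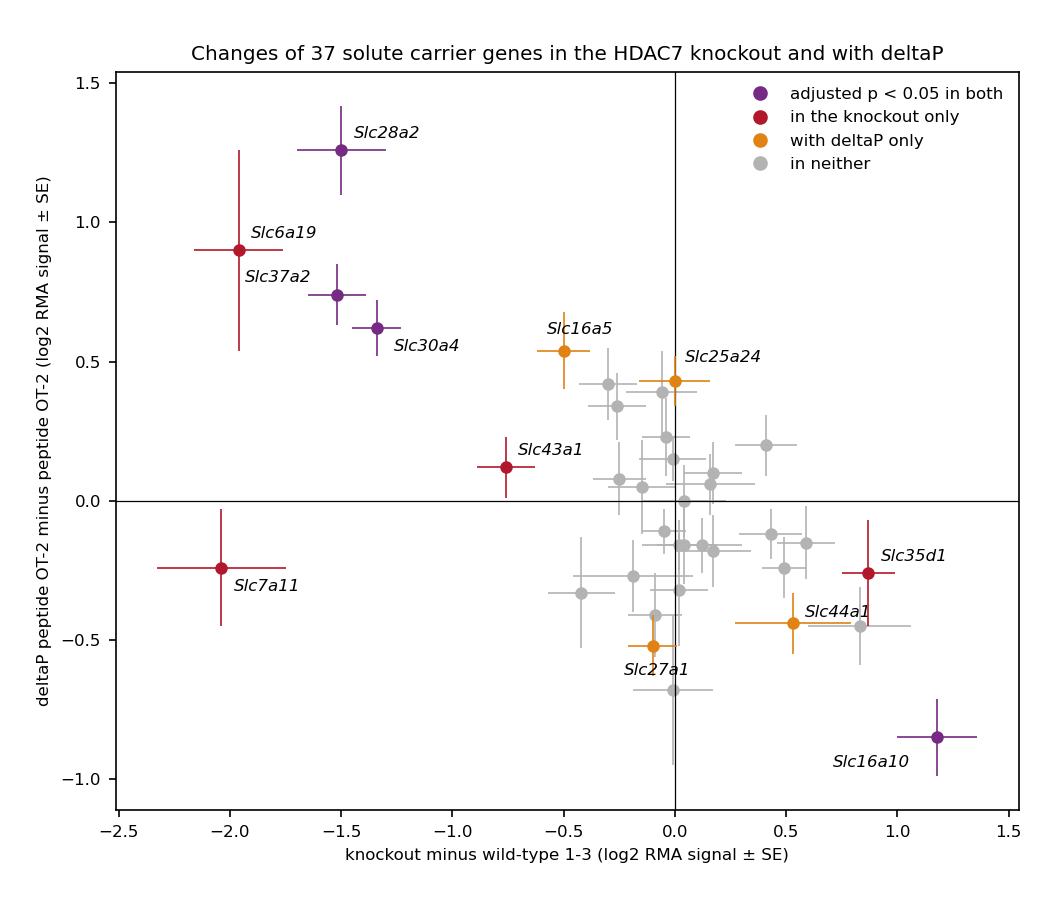
Change of each of the 37 solute carrier genes in the knockout (horizontal axis) and with deltaP (vertical axis), in log2 RMA signal with standard errors; colours mark where the adjusted p was under 0.05. Slc28a2, Slc37a2 and Slc30a4 lie at upper left and Slc16a10 at lower right, while Slc7a11 lies at -2.04 and -0.24.

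Slc28a2 and Slc30a4 lie close together on chromosome 2. In RefSeq GRCm38.p6 the next protein-coding gene after Slc28a2 is Slc28a2b, a related nucleoside transporter that the authors' tables list under the name Gm14085, and Gatm, Spata5l1 and AA467197 lie between it and Slc30a4. Gm14085 is no member by symbol and was looked up after the values of Slc28a2 were seen. It had 6.38, 6.27 and 6.71 in the knockout, against 7.84, 8.22 and 8.44 on wild-type arrays 1 to 3, and fell by 1.71 ± 0.18 (adjusted p = 0.00446, limma). With deltaP it had 10.00, 10.99 and 10.13, against 8.16, 7.72 and 7.59 in peptide-injected OT-2, and rose by 2.55 ± 0.26 (adjusted p = 0.00499, limma). Slc28a2, Gm14085 and Slc30a4 thus fell in the knockout and rose with deltaP. No values are given here for Gatm, Spata5l1 and AA467197, so this does not describe the stretch as a whole. Probe sequences were not used here, so how far the probes for the related genes Slc28a2 and Gm14085 detect each other's RNA was not tested.

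Marker levels beside the deltaP result were as follows. The double-positive markers averaged 10.37 to 10.66 on deltaP arrays, against 10.20 to 10.34 on peptide arrays, and Cd4 rose by 0.64 ± 0.18 (adjusted p = 0.0489, limma). The double-negative markers averaged 7.58 to 7.91, against 7.95 to 8.68. Of these Dtx1 fell by 0.65 ± 0.16 (adjusted p = 0.0331, limma), while Il2ra and Cd44 did not pass. Itgam had 6.58 to 6.82, against 6.65 to 6.75, and Cd79b 8.31 to 8.58, against 8.47 to 8.69. Their part in the carrier changes was not tested.

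At 3 hours after peptide, 4 solute carriers were higher and 6 lower than in OT-2, and 19.5% of all rows were called. The rises were of the myo-inositol transporter Slc5a3 by 0.75 ± 0.19, of Slc41a1 by 0.50 ± 0.12, of Slc39a2 by 0.41 ± 0.07 and of Slc7a6, an exchanger of cationic and neutral amino acids, by 0.39 ± 0.07. The falls were of the lactate transporter Slc16a1 by 0.82 ± 0.10, of the nucleotide sugar transporters Slc35b4 by 0.65 ± 0.08 and Slc35a3 by 0.58 ± 0.11, of Slc25a24 by 0.37 ± 0.08, of Slc44a1 by 0.36 ± 0.09 and of the urea transporter Slc14a1 by 0.33 ± 0.09. Adjusted p-values ran from 0.00762 for Slc16a1 to 0.0383 for Slc14a1 (limma), and peptide and OT-2 arrays did not overlap in any of the 10. Of the double-positive markers Ptcra fell by 1.01 ± 0.13 after peptide (adjusted p = 0.00796, limma), and their mean was 10.20 to 10.34 after peptide, against 10.69 to 10.87 in OT-2. Cd79b fell by 0.54 ± 0.08 (adjusted p = 0.0102, limma), with 8.47 to 8.69 after peptide, against 9.08 to 9.12 in OT-2. The double-negative markers had means of 7.95 to 8.68, against 8.30 to 8.41, and Itgam 6.65 to 6.75, against 6.74 to 6.91, and none of these passed. Their part in the carrier changes was not tested.

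Slc16a1 had 9.97, 9.96 and 10.27 after peptide, against 10.92, 10.86 and 10.87 in OT-2. Slc5a3 had 7.13, 6.83 and 7.62 after peptide, against 6.45, 6.57 and 6.33 in OT-2. Slc16a1 and Slc35b4 kept their calls without each of the 6 arrays, while the count of members was 2, 3 and 5 without OT-2 arrays 1, 2 and 3. Over all rows 748, 1542 and 2115 were then called, against 5631 with all arrays. Spread in OT-2 was small. In 17.1% of rows at least 2 of the 3 OT-2 arrays held the same value to all 6 deposited decimals, against 0.183% in VP16 and 0.173% on wild-type arrays 4 to 6, which have as many decimals. Slc39a2 held 1 value on all 3 OT-2 arrays and Slc41a1 and Slc22a3 held 1 value on 2 of them. The standard errors of Slc39a2 and Slc41a1 against OT-2 rest on these values, and the cause of the identical values was not tested.

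**Figure D4:**
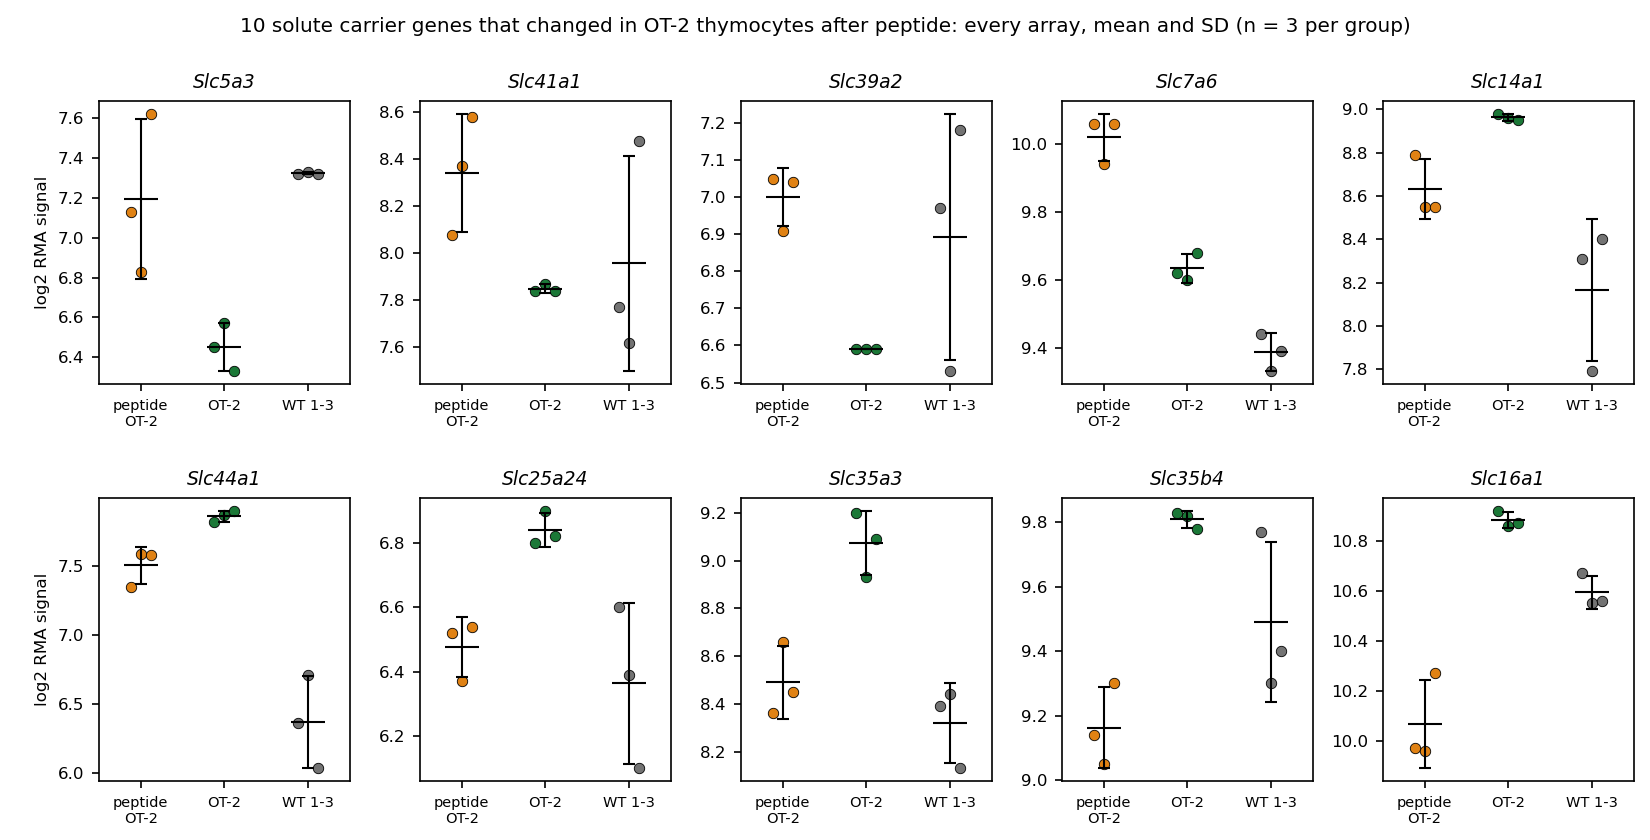
Log2 RMA signal of the 10 solute carrier genes called after peptide on every array (points), with the mean and SD of each group of 3 arrays, for peptide-injected OT-2, OT-2 and wild-type 1-3; each axis has its own range. The peptide and OT-2 arrays do not overlap in any panel, and the OT-2 points lie close together, with a single value in Slc39a2.

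Against wild-type arrays 1 to 3, which share the block of the peptide arrays, peptide-injected OT-2 thymocytes had 6 carriers higher and 5 lower, where 5.76% of all rows were called. This difference joins the receptor transgene and the peptide. Slc44a1 rose by 1.14 ± 0.17, Slc16a10 by 1.08 ± 0.14, the acetyl-CoA transporter Slc33a1 by 0.91 ± 0.17, Slc11a2 by 0.65 ± 0.14, Slc39a10 by 0.64 ± 0.11 and Slc7a6 by 0.63 ± 0.09. Slc6a19 fell by 1.70 ± 0.28, Slc16a5 by 0.89 ± 0.13, mitoferrin Slc25a37, which brings iron into mitochondria, by 0.79 ± 0.12, Slc25a27, a mitochondrial carrier of the uncoupling protein group, by 0.73 ± 0.16 and Slc16a1 by 0.53 ± 0.12. Adjusted p-values ran from 0.00626 for Slc16a10 to 0.0405 for Slc25a27 (limma). Slc44a1 had 7.35, 7.59 and 7.58 after peptide, against 6.36, 6.71 and 6.04 on wild-type arrays 1 to 3. It had 6.31, 7.21 and 7.17 in the knockout, overlapping wild type, 7.29, 7.32 and 7.21 in VP16, against 7.32, 7.36 and 7.26 on wild-type arrays 4 to 6, and 7.21, 6.93 and 7.07 with deltaP. The count was 4 without peptide array 1 or wild-type array 3 and 7 without peptide array 2. Over all rows 459, 430 and 577 were then called, against 1667 with all arrays. Markers of stage moved in this comparison. Of the 3 double-negative markers Il2ra rose by 2.76 ± 0.27 (adjusted p = 0.00245, limma) and Dtx1 by 1.72 ± 0.14 (0.00136), and the mean of the 3 was 7.95 to 8.68 after peptide, against 6.35 to 6.91 on wild-type arrays 1 to 3. Cd44 changed by 0.33 ± 0.28 without passing (adjusted p = 0.56, limma). Of the 5 double-positive markers Rag1 fell by 0.84 ± 0.12 (0.00891), Cd4 by 0.68 ± 0.15 (0.0390) and Cd8b1 by 0.48 ± 0.09 (0.0247), while Ptcra rose by 0.56 ± 0.12 (0.0377), and their mean was 10.20 to 10.34, against 10.59 to 10.79. Their part in the carrier changes was not tested. Side by side on the same wild-type arrays, the knockout changed Slc16a10 by 1.18 and Slc6a19 by -1.96, and peptide-injected OT-2 changed them by 1.08 and -1.70. The other carriers called in the knockout did not pass here. Slc7a11 changed by -0.73, Slc28a2 by -0.39, Slc35d1 by -0.35, Slc43a1 by -0.16, Slc30a4 by -0.15 and Slc37a2 by 0.16. Of these, Slc35d1 and Slc37a2 had the sign opposite to that in the knockout. Both comparisons share their control arrays, so nothing is read from the likeness.

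In OT-2 thymocytes against all 6 wild-type arrays 2 of the 37 genes passed, Slc16a10 and Slc6a19, where 2.31% of all rows were called. The count was 0 without OT-2 array 1 (limma, 19 with an unadjusted p under 0.05), 0 without OT-2 array 2 (18 with such a p) and 7 without wild-type array 2. Over all rows 51, 51 and 571 were then called, against 668 with all arrays. After each array was centred on its median 0 members were called higher and 3 lower. In OT-2 the double-negative markers Il2ra and Dtx1 rose by 2.69 ± 0.26 (adjusted p = 0.00153, limma) and 1.67 ± 0.26 (0.0135), and the 3 named averaged 8.30 to 8.41 in OT-2, against 6.35 to 6.91 on wild-type arrays 1 to 3 and 6.99 to 7.48 on wild-type arrays 4 to 6. Cd44 changed by -0.07 ± 0.25 (adjusted p = 0.922, limma). Of the 5 double-positive markers 0 passed (limma, 4 with an unadjusted p under 0.05), and the part of these shifts in the carrier changes was not tested. The authors' OT-2 list holds 19 of the 37, of which 2 were called here. All 19 had the same direction here. The list is of the same comparison and helped to choose the members, so nothing is read from this. Over all 37 genes the authors' fold and the change here had opposite signs in 6. The wild-type sets lie in different blocks, and the count depended on them. Against wild-type arrays 1 to 3, with 27.0% of all rows called, 20 members passed, and against wild-type arrays 4 to 6, with 52.8% of all rows called, 28 passed. Of the 37, 13 passed the same way against both sets. The share of all rows that did so was not counted, and 19 of the 37 came from the authors' OT-2 list. This count is therefore a description. Its standard errors also rest on the OT-2 arrays, in which many rows held identical values. The 5 higher were Slc16a10, Slc14a1, Slc44a1, Slc39a10 and Slc45a3, a member of the sugar transporter group. The 8 lower were the glutamine transporter Slc1a5, Slc43a2, a facilitative neutral amino acid carrier, Slc6a19, Slc16a5, Slc22a3, Slc30a4, Slc25a27 and Slc25a37. Slc44a1 was higher by 1.49 ± 0.16 against the one set and 0.55 ± 0.06 against the other, and Slc1a5 was lower by 0.35 ± 0.09 and 0.65 ± 0.07. Slc38a1 and Slc16a1 were called in opposite directions against the 2 sets.

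Genes of nucleotide metabolism were read beside the nucleoside carriers. Of a list of 19 such genes 8 were named, and after peptide all 8 fell against OT-2 (limma), where 19.5% of all rows were called: Hprt, which salvages purine bases, by 0.54 ± 0.07 (adjusted p = 0.00834), Dck, which phosphorylates deoxynucleosides, by 0.51 ± 0.08 (0.0105), Impdh2, of guanine nucleotide synthesis, by 0.84 ± 0.14 (0.0132) and Adk, adenosine kinase, by 0.58 ± 0.10 (0.0133) were the 4 with the smallest adjusted p-values. In the same comparison the purine nucleoside importer Slc28a2 changed by -0.16 ± 0.19 and Slc29a1 by -0.18 ± 0.15, and neither passed. In the knockout 1 of the 8 passed, Ampd1, AMP deaminase, which rose by 1.55 ± 0.11 (adjusted p = 9.58e-04) where Slc28a2 fell, and with deltaP it fell by 0.87 ± 0.16 (adjusted p = 0.0144) where Slc28a2 rose. In VP16, with 1.43% of all rows called, 4 of the 8 fell and Ampd1 rose. The list was named through the authors' tables, so its counts describe genes that the authors had called in at least 1 comparison.

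Most of the amino acid response list did not pass in the receptor transgenic groups either, but its changes against wild type were all upward there. In OT-2, with 2.31% of all rows called, 2 of its 9 named genes rose, Aldh18a1 by 0.92 ± 0.15 (adjusted p = 0.0171, limma) and Pycr1 by 0.78 ± 0.13 (0.0170), both of proline synthesis, and 7 did not pass. All 9 had an unadjusted p under 0.05, with a median change of 0.78. In peptide-injected OT-2 against wild type, with 5.76% of all rows called, Aldh18a1 rose by 1.02 ± 0.10 (adjusted p = 0.00267, limma) and Nars by 0.99 ± 0.14 (0.00946). There 7 did not pass, 8 of the 9 had an unadjusted p under 0.05 and the median change was 0.51. The 9 were named through the authors' tables, so these counts are a description. After peptide, against OT-2, Pycr1 fell by 0.45 ± 0.11 (adjusted p = 0.0323, limma), and with deltaP Aldh18a1 fell by 0.65 ± 0.14 (0.0240). Each was the one of 9 that passed, where 19.5% and 15.0% of all rows were called. In OT-2 against wild type the amino acid carrier Slc1a4 was higher by 0.88 ± 0.21 without passing (adjusted p = 0.0626, limma). Slc7a11 lay lower there, with a change of -0.61 ± 0.17 (adjusted p = 0.102, limma). Of 10 genes of metal handling Tfrc, the transferrin receptor, and Ftl1, ferritin light chain, were named; in VP16 Tfrc fell by 0.41 ± 0.07 (adjusted p = 0.0355, limma) while the iron importer Slc11a2 rose, and neither gene passed elsewhere.

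The 9 genes that never passed came closest in the receptor transgenic or VP16 comparisons, apart from Slc38a1 in the knockout. The values of Slc43a2 with peptide-injected OT-2 against wild type (-0.59 ± 0.14, adjusted p = 0.0523, limma) and of Slc1a4 in OT-2 lay just outside the threshold. Against all 6 wild-type arrays OT-2 differed by -0.60 ± 0.14 in Slc43a2 (adjusted p = 0.0550), by -0.50 ± 0.13 in Slc1a5 (0.0755), by -0.54 ± 0.15 in the phosphate importer Slc20a1 (0.0873), by -0.55 ± 0.15 in Slc37a1 (0.0926) and by 0.52 ± 0.15 in Slc45a3 (0.115), with no overlap between groups in any of them. Slc29a1 differed by -0.45 ± 0.10 in VP16 (adjusted p = 0.0619, limma), also without overlap. These changes missed the threshold, which does not show that the genes were equal between the groups.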

How the data were processed

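Values are the log2 RMA signals per probe set that the authors deposited; per the labels' design text the arrays were normalized with RMA in groups that follow the comparisons, and per the submitters' processing notes Affymetrix Expression Console was used for the deltaP arrays. The sources used here give no version for these tools. The authors' deposited tables give each gene a fold as a ratio of tested over control, a SAM score and a q-value in percent, per the deposited readme; they served to name rows and to list members, and their folds equal the differences computed here to within 0.000734 in log2 for the knockout and for VP16, but not in the OT-2 and peptide comparisons (largest difference 0.286 and 0.341).

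Of 35556 rows, 6612 of the control block were left out, 28944 were kept and 21 further probe sets of genes already named were dropped, so that 28923 were tested. Each of the 37 members has 1 probe set; 36 were matched by accession and Slc44a1 by symbol. Each comparison was fitted on its own arrays with limma 3.58.1 (lmFit and eBayes, R 4.3.3), and VP16 was set against the knockout, effect against effect, in one fit of 12 arrays; the script was tested on simulated data. Samples were grouped by title, and the design text calls them biological replicates. The members, the other gene lists and the substrate classes were chosen with earlier results of these data known. Every member is named, and values on every array are given for members with an adjusted p under 0.05 and a change of at least 1 on the log2 scale in any comparison and for the 2 with the smallest adjusted p with deltaP, and for Slc16a1 and Slc5a3, chosen after their values were seen; other lists give up to 4 genes with the smallest adjusted p. A search for genes with a like pattern over groups was not made, since it would rest on fewer than 6 independent points. Knockout and wild-type arrays of the same number deviated together (r = 0.423, 0.261 and 0.250 for numbers 1, 2 and 3), so the numbers were taken as pairs there, and the blocked fit is given where it bears on a call; the values printed are otherwise from the fit without the block. In the other comparisons the numbers were not taken as pairs. Alternatives were scaling, filtering, probe choice, an intensity trend, other control arrays, a replicate block and leaving out each array. The software for tables and plots was python 3.11.15, pandas 2.3.3, numpy 2.4.6 and matplotlib 3.10.9. One list of cell markers is not reported here.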

Additional observations from a re-analysis of the deposited data

Results flagged for a closer look

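In 6 carriers the VP16 effect differed from the knockout effect by a test of the difference itself (limma, 12 arrays). The members were chosen in part by the authors' knockout and VP16 lists, so this is a description. The difference, VP16 minus knockout, was 2.48 in Slc6a19 (adjusted p = 6.22e-04), 2.00 in Slc7a11 (0.0201), 1.78 in Slc28a2 (0.00453), 1.74 in Slc37a2 (2.34e-04), 1.44 in Slc30a4 (1.59e-04) and 1.21 in Slc43a1 (0.00200). The knockout change was the larger in size in each, from -2.04 in Slc7a11 to -0.76 in Slc43a1, and the VP16 changes of the same genes ran from -0.04 to 0.52. No member had a wild-type array that stood apart from the other 5 by Dixon's criterion. The 6 arrays lie in 2 blocks, and some members differ between these. Slc16a1 had 10.55 to 10.67 on wild-type arrays 1 to 3 and 11.58 to 11.63 on wild-type arrays 4 to 6. An array apart within its own set of 3 could thus be missed, and nothing is read from this criterion.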

How the results depend on the processing

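Of the 52 calls of a member in a comparison, 18 held in every alternative, and none turned its sign; of the 207 pairs without a call 58 were called in some alternative and 80 turned sign in some. Counts of members called changed as follows. In VP16 the count of 7 became 11 when rows below the median were left out, 11 with an intensity trend and 1 with all 6 wild-type arrays. In OT-2 the count of 2 became 13 with quantile normalization, 5 with the filter, 20 against wild-type arrays 1 to 3 and 28 against wild-type arrays 4 to 6. Each array was left out in turn in fits without the block. This gave 4 to 5 for the knockout, 1 to 9 for VP16, 0 to 7 for OT-2, 2 to 12 for peptide, 4 to 10 for deltaP, 4 to 10 for peptide-injected OT-2 against wild type and 5 to 7 for the difference between VP16 and knockout effects. The replicate block left the knockout count at 8 and gave 9 for that difference; where the numbers do not pair the arrays it gave 17 in OT-2, 6 with peptide, 7 with deltaP and 9 against wild type. With these other comparisons same-numbered arrays correlated in their deviations at r from -0.110 to 0.161. The backgrounds moved too: 1725 rows instead of 413 in VP16 with the filter, 1456 (quantile) and 6569 (block) instead of 668 in OT-2, 3721 (quantile), 3186 (filter) and 3329 (block) instead of 5631 with peptide, 846, 584 and 2801 instead of 4349 with deltaP, and 464 (filter) and 649 (block) instead of 232 for the difference. The causes were not tested.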

Other observations

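Of 19 ABC and SLCO transporters, which lie outside the solute carriers chosen here, 5 were named. Of the 5, 1 was called in OT-2, 3 after peptide and 2 with deltaP, where 2.31%, 19.5% and 15.0% of all rows were called. After peptide, against OT-2, Abca1 and Abcg1, which export cholesterol, fell by 0.69 ± 0.08 (adjusted p = 0.00673, limma) and 0.78 ± 0.14 (0.0153), and Abcc1, a glutathione conjugate exporter, rose by 0.75 ± 0.13 (0.0146). With deltaP Abca1 rose by 0.87 ± 0.12 (adjusted p = 0.00818, limma) and Abcb4, a phospholipid exporter, fell by 0.37 ± 0.10 (0.0406). In OT-2 Abcc5 fell by 0.72 ± 0.15 (0.0348). None of the 5 passed in the knockout, where Abca1 had the largest change, -1.33 ± 0.33 (adjusted p = 0.197).

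Of 19 glycolysis genes 4 were named. Ldhb, a lactate dehydrogenase subunit, fell by 0.87 ± 0.12 in the knockout (adjusted p = 0.0164, limma), where the lactate transporter Slc16a1 changed by -0.30 ± 0.13 without passing. Tpi1 and Eno1 fell in VP16 by 0.66 ± 0.10 (0.0283) and 0.46 ± 0.07 (0.0332). Tpi1 fell after peptide by 0.90 ± 0.14 (adjusted p = 0.0117, limma), a comparison in which Slc16a1 fell as well, and Pfkp rose with deltaP by 0.51 ± 0.10 (0.0163).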
